A study of Mus musculus with 31 samples.

Results

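BRD1 is a scaffold protein of histone acetyltransferase complexes, in which it recruits enzymes such as KAT7 and KAT6A to chromatin. The comparison described here is that of *Brd1*+/- mice with their wild type (WT) litter mates under vehicle, in caudate putamen (CPu), the dorsal striatum. It rests on 15 of the 31 mice of the series, 7 *Brd1*+/- and 8 WT, taken by the genotype and treatment in their labels. All were labelled as female mice of the C57BL/6NTac-Brd1 strain, 8 to 11 weeks old, and all were injected with saline. *Brd1*+/- mice carry a targeted deletion within *Brd1* on 1 allele. By the study's methods the injected mice also went through tail suspension, open field and forced swim tests, and their brains were collected after the last of these. The other 16 mice, 8 WT and 8 *Brd1*+/-, received the tricyclic antidepressant imipramine (IMN) at 10 mg/kg and served for a second look at the same genotype contrast. A punch of frozen tissue was sequenced for each mouse. Expression is given as TPM, a transcript abundance that is scaled for gene length and sums to nearly the same total in each mouse. The p-values below measure the spread between mice.

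The CPu is made up mostly of medium spiny neurons, which use GABA and fall into a D1 class, with the dopamine receptor gene *Drd1*, and a D2 class with *Drd2* and *Adora2a*. They depend on cyclic AMP signaling through the G protein subunit encoded by *Gnal*, and hold little of the vesicular glutamate transporter gene *Slc17a7*. Cortical pyramidal neurons, which lie across the white matter from the CPu, are rich in *Slc17a7*, *Neurod6* and *Fezf2*, as well as in genes of fast synaptic release. Interneurons with *Pvalb*, *Sst* or *Npy* occur in both regions.

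The punches differed in which of these tissues they held, and they did so with genotype. A cortical score, the mean log2(TPM + 1) of 10 genes of cortical excitatory neurons, was between 5.11 and 6.27 in WT mice 1, 2, 3, 4, 5 and 7. It was 1.09 in WT mouse 6 and 1.23 in WT mouse 8. The 7 *Brd1*+/- mice lay between these, from 1.54 to 3.59. *Slc17a7* had TPM of 2.57 at the lowest, 932 at the median and 1412 at the highest in WT mice, and 7.33, 95.8 and 171 in *Brd1*+/- mice. The WT group was thus split into 6 mice above every *Brd1*+/- mouse and 2 mice below them all. *Slc17a7* itself differed by −2.05 ± 1.35 (SE) in log2 fold change, which limma did not separate from the spread between mice (adjusted p = 0.308). *Fezf2*, a transcription factor gene of deep cortical layers, was called lower in *Brd1*+/- mice (log2 fold change −2.25 ± 0.63, adjusted p = 0.0556), and differed by 0.44 from WT mice 6 and 8. It was at 2.41, 37.9 and 78.3 TPM in WT mice (lowest, median and highest) and at 1.84, 3.39 and 8.06 in *Brd1*+/- mice.

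**Figure D1:**
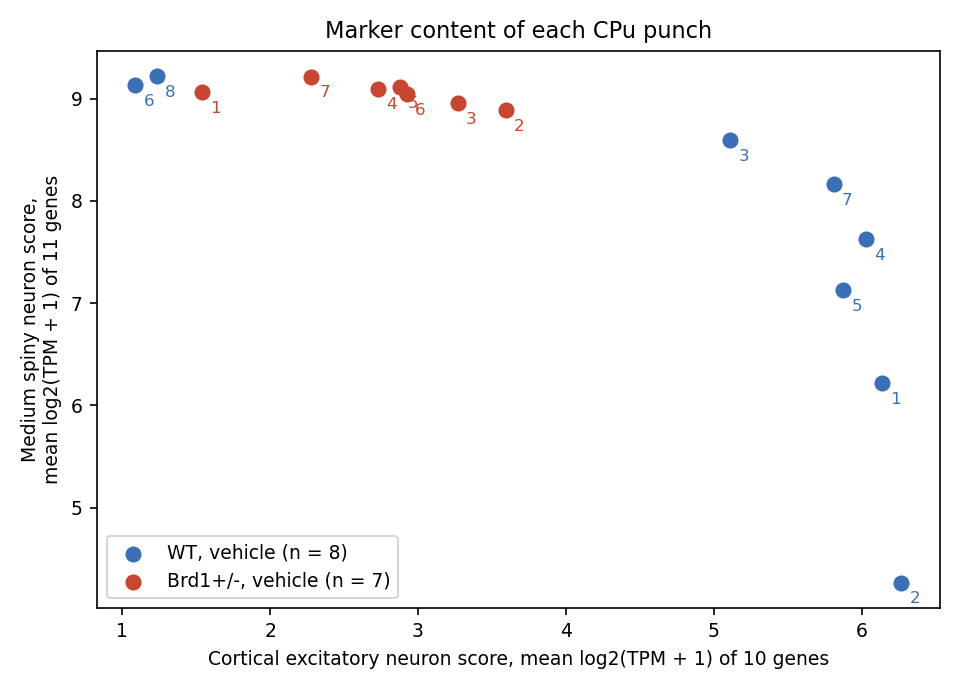
Cortical excitatory neuron score (x axis) against medium spiny neuron score (y axis), both as mean log2(TPM + 1), with 1 point for each vehicle administered mouse and its number beside it. WT mice 6 and 8 lie near the *Brd1*+/- mice in striatal score and below them all in cortical score (1.09 and 1.23, against 1.54 to 3.59). The other 6 WT mice have cortical scores of 5.11 to 6.27 and lower striatal scores.

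Striatal markers ran the other way. The medium spiny neuron score over 11 genes was between 8.89 and 9.22 in *Brd1*+/- mice, 9.13 and 9.22 in WT mice 6 and 8, and 4.27 to 8.59 in the other 6 WT mice. *Drd1* was at 1.37, 88.8 and 180.1 TPM in WT mice and at 162, 183 and 195 in *Brd1*+/- mice (lowest, median and highest). Its lowest value belonged to WT mouse 2, which also had 0.748 TPM of *Drd2* and 1.02 TPM of *Adora2a*. These 3 receptor genes were thus near 0 in this punch, although its label names CPu. *Ppp1r1b*, encoding the dopamine signaling protein DARPP-32, reached 73.8 TPM in WT mouse 2, against 4023 TPM in WT mouse 8. *Penk*, the enkephalin precursor gene of D2 neurons, was called higher in *Brd1*+/- mice (log2 fold change 1.59 ± 0.54, adjusted p = 0.0717 in limma). It lost its call without any 1 of 12 of the mice and with the cortical score as a covariate (0.60), and its difference from WT mice 6 and 8 was −0.10. Of the D1, D2 and general medium spiny neuron lists, 2 of 7, 1 of 5 and 1 of 11 genes were called higher (nominal p under 0.01), beside 1.47% of all genes, and 0 were called lower. In all 3 lists 0 genes were called with the cortical score as a covariate or against WT mice 6 and 8. *Chat*, the acetylcholine synthesis gene of cholinergic interneurons, ranged from 0 to 16.6 TPM in WT mice and from 10.9 to 19.7 in *Brd1*+/- mice, and was not called.

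In tissue punches, fewer cells of a type and less RNA per cell cannot be told apart. Because most of the WT mice differed from the *Brd1*+/- mice in tissue content, genotype and punch content cannot be told apart in the full comparison. The groups of genes below are therefore described also in 2 further fits, with the cortical score as a covariate, and against WT mice 6 and 8 alone, a choice made after seeing the data. WT mice 6 and 8 scored below every *Brd1*+/- mouse, so against them the cortical difference had the opposite sign. In that fit 4 of 9 cortical excitatory neuron genes were called higher and 0 lower, beside 0.659% and 0.232% of all genes. The choice of these mice by the score of the same genes fixed that direction. The part of cortical tissue in each single gene's difference was not tested beyond these fits. In 1 punch, WT mouse 7, the summed TPM of 4 Y-linked genes was 26.8, against 0.188 at most in the other 14, although all mice are labelled female.

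Other cell types varied as well. The 12 oligodendrocyte genes summed to 1535 to 10285 TPM in WT mice, with WT mouse 1 the highest, and to 1478 to 4426 TPM in *Brd1*+/- mice. All 12 were lower in sign in *Brd1*+/- mice, as were 16897 of all 23200 genes tested, and 0 were called. Against WT mice 6 and 8, 1 of 12 was lower in sign, beside 9894 of 21080 genes. Of these 12 oligodendrocyte genes, 11 astrocyte genes and 7 precursor genes, 1 was called, *Slc4a4* of the astrocyte list. Summed TPM of 12 microglia genes was 286 to 456 in WT mice and 412 to 534 in *Brd1*+/- mice, so that the groups overlapped. The choroid plexus and ependyma genes summed to 8.26 to 24.5 TPM in WT mice and 13.4 to 40.0 in *Brd1*+/- mice, with 4 of the 10 genes above 0 in every vehicle mouse.

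Across the transcriptome, 23200 genes were tested. A gene is termed called here when limma gave a nominal p under 0.01. This is the study's cut for nominally significant genes, which it uses beside a false discovery rate of 5%. This held for 3153 genes, 13.6% of those tested, of which 2811 (12.1%) were lower and 342 (1.47%) higher in *Brd1*+/- mice. At a false discovery rate (FDR) of 5%, limma called 0 genes, and 7168 had an unadjusted p under 0.05. That 0 was not stable, as 5482 genes passed the FDR without WT mouse 8, 4563 without WT mouse 6 and 1833 among genes with a mean of at least 1 TPM. In all mice the adjusted p of all called genes lay between 0.0556 and 0.0735, so none is singled out by it. The groups did not overlap in 67 genes, 0.289% of those tested, and 63 of these were lower in *Brd1*+/- mice.

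The excess of lower genes moved with the scaling. The median log2 fold change over all genes was −0.13 in TPM as deposited. After median-of-ratios scaling, which sets the median gene of each mouse level, it was 0.00. The calls then became 1207 lower (5.2%) and 931 higher (4.01%), with the share of lower genes falling from 89.2% to 56.5%. All 342 higher genes and 1207 of the 2811 lower genes were called in the same direction after scaling. Size factors were 0.896 to 1.21 in WT and 0.880 to 0.995 in *Brd1*+/- mice. The 13 protein genes of the mitochondrial genome took 184417 to 284372 TPM of each WT library and 265604 to 305511 TPM of each *Brd1*+/- library. Protein-coding genes carried most calls, with 2336 lower and 239 higher of 14894 tested. Of 851 lincRNA genes, 52 were lower and 28 higher.

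The count also differed between fits with a tissue score as a covariate and fits with fewer WT mice. With the cortical score as a covariate, limma called 501 genes (2.16%), of which 470 were lower. With the medium spiny neuron score as a covariate it called 266 (1.15%), and both fits called 0 genes at an FDR of 5%, with 2039 and 1702 genes at an unadjusted p under 0.05. Against WT mice 6 and 8 alone, a fit with 2 in place of 8 WT mice and 21080 genes tested, 188 genes were called (0.892%), of which 49 were lower and 139 higher. Of the 2811 lower genes, 2657 could be tested in this fit, which called 13 lower (0.489%, beside 0.232% of all genes) and 13 higher, and 61.8% were lower in sign, against 46.9% of all genes. Their median log2 fold change was −0.52 in all mice and −0.04 against these 2 WT mice. A single punch changed the count as well. Leaving out WT mouse 8 gave 5154 calls, whereas leaving out WT mouse 1, WT mouse 5 or *Brd1*+/- mouse 1 gave 2045, 2036 and 2068. Without WT mice 2 and 7 together there were 1317.

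**Figure D2:**
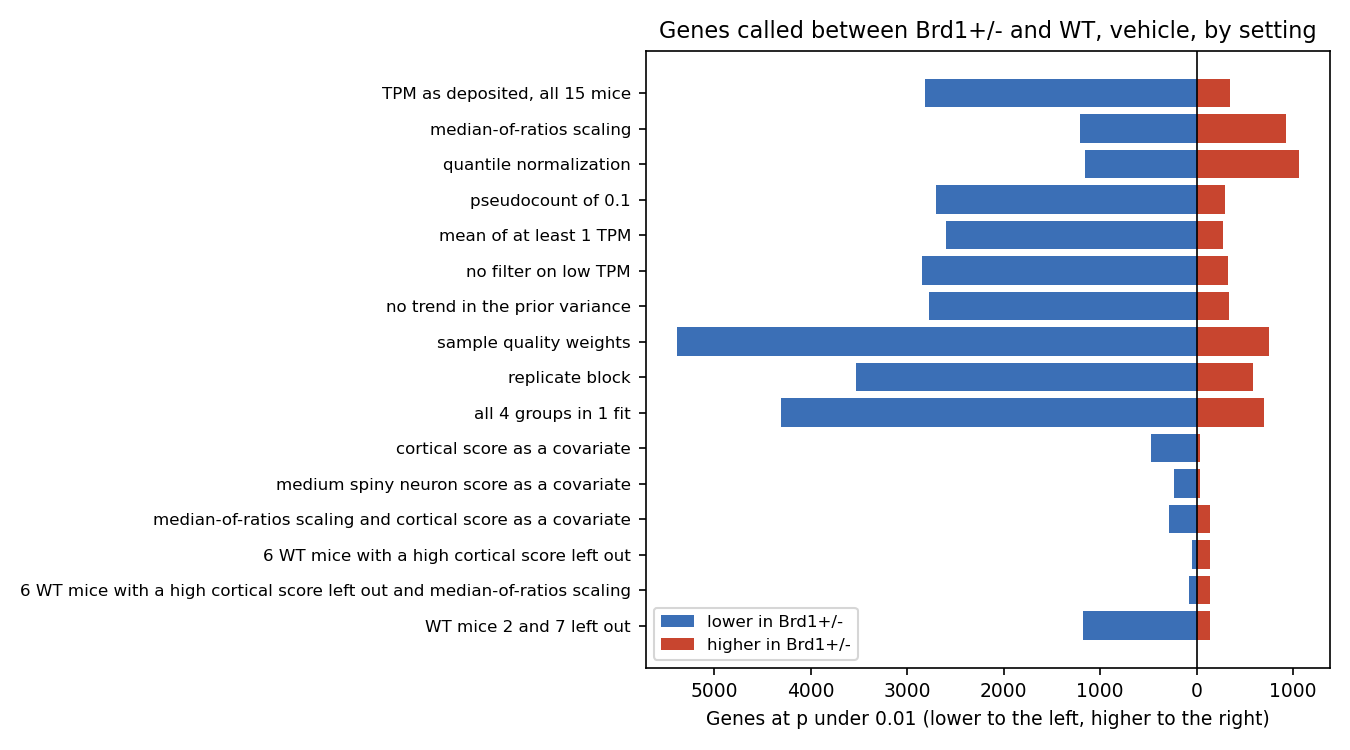
Number of genes called at p under 0.01 (x axis), lower in *Brd1*+/- mice to the left and higher to the right, for each setting of the fit (y axis). Scaling evens out the directions, and the fits that allow for tissue content or use WT mice 6 and 8 alone call 188 to 501 genes, against 3153 in TPM as deposited.

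*Brd1* itself was lower in every fit. The gene (GRCm38 chr15:88687034-88734233, minus strand) was at 18.3, 22.99 and 26.9 TPM in WT mice and at 11.1, 13.1 and 16.001 TPM in *Brd1*+/- mice (lowest, median and highest). The groups did not overlap, and the lowest WT value was that of mouse 8. Mean TPM was 22.5 ± 2.97 (SD, n = 8) and 13.4 ± 2.02 (SD, n = 7), which is 59.4% of WT. The log2 fold change was −0.71 ± 0.10 (adjusted p = 0.0556), −0.53 after median-of-ratios scaling, −0.60 with the cortical score as a covariate and −0.51 against WT mice 6 and 8. In an exact permutation test over all 6435 assignments of the mice, the two-sided p was 0.000155, the smallest it can give. TPM sums all transcripts of the gene, so the deleted part was not looked at on its own. Of the other 8 genes of its acetyltransferase complexes, among them the enzymes *Kat6a*, *Kat6b* and *Kat7*, 0 were called in either direction.

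The 10 genes called lower with the smallest p, among protein-coding genes of at least 1 TPM, are in none of the marker lists of either tissue. After *Brd1* they were *Tbcb*, *Map2k3*, *Ncapd2*, *1500009L16Rik*, *Glmn*, *Arpc3*, *Dnaja1*, *Hmgb1* and *Vill*. *Tbcb*, a chaperone of tubulin folding, was at 36.6, 44.4 and 55.6 TPM in WT mice and 25.0, 28.1 and 34.7 in *Brd1*+/- mice. Its groups did not overlap, and its log2 fold change was −0.64 ± 0.11 in all mice and −0.41 beside WT mice 6 and 8. *Ncapd2*, a condensin subunit gene, was at 21.03, 29.4 and 35.5 TPM in WT mice and at 15.9, 17.6 and 20.5 in *Brd1*+/- mice. *Map2k3*, encoding the kinase that activates p38, had the largest difference of the 10, at −1.69 ± 0.30. Its TPM was 2.68, 10.8 and 17.0 in WT mice and 1.27, 1.64 and 3.75 in *Brd1*+/- mice, which overlapped through WT mouse 8. *Dnaja1*, a cochaperone of HSP70, fell by 0.50 ± 0.09 on the log2 scale without overlap of the groups, as did *Arpc3*, a subunit of the ARP2/3 actin complex, by 0.43 ± 0.08. *Glmn* and *1500009L16Rik* each fell by 0.56 ± 0.10 without overlap. *Hmgb1*, a chromatin protein gene, and *Vill*, an actin binding gene, had differences of −0.61 ± 0.11 and −0.88 ± 0.17 with overlap. All 10 were called both after scaling and with the cortical score as a covariate. In the comparison with WT mice 6 and 8 all 10 were lower in sign, but *Brd1* and *Tbcb* alone were called. *Map2k3*, *Ncapd2* and *Arpc3* were then at −0.71, −0.24 and −0.17.

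Higher genes with the smallest p, chosen in the same way, included *Jag1*, *Gnb5*, *Tmem114*, *Fndc1*, *Gpr12*, *Ephx1*, *Cacna1c*, *Nlgn1* and *Sbsn*. *Gnb5*, the G protein beta subunit that pairs with RGS9 in striatum, was at 112, 199 and 242 TPM in WT mice and 249, 287 and 303 in *Brd1*+/- mice. It was the one of these genes whose groups did not overlap (log2 fold change 0.61 ± 0.14, 0.81 after scaling). WT mice 6 and 8 had 206 and 229.8 TPM, and the difference from them was 0.34. *Gpr12*, an orphan receptor gene, was at 8.76, 17.5 and 23.4 TPM in WT mice and 22.1, 26.5 and 33.2 in *Brd1*+/- mice, and its lowest value was in WT mouse 8. It differed by 0.66 ± 0.16, and by 0.95 against WT mice 6 and 8. *Jag1*, a Notch ligand gene, differed by 0.86 ± 0.18. *Cacna1c*, the L-type calcium channel gene, was at 26.4 and 29.4 TPM in WT mice 6 and 8 and at 27.3 to 34.1 TPM in *Brd1*+/- mice, so that mouse 6 lay just below their range and mouse 8 within it. *Jag1*, *Gnb5*, *Tmem114* and *Gpr12* were called with the cortical score as a covariate, and the other 5 were not.

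**Figure D3:**
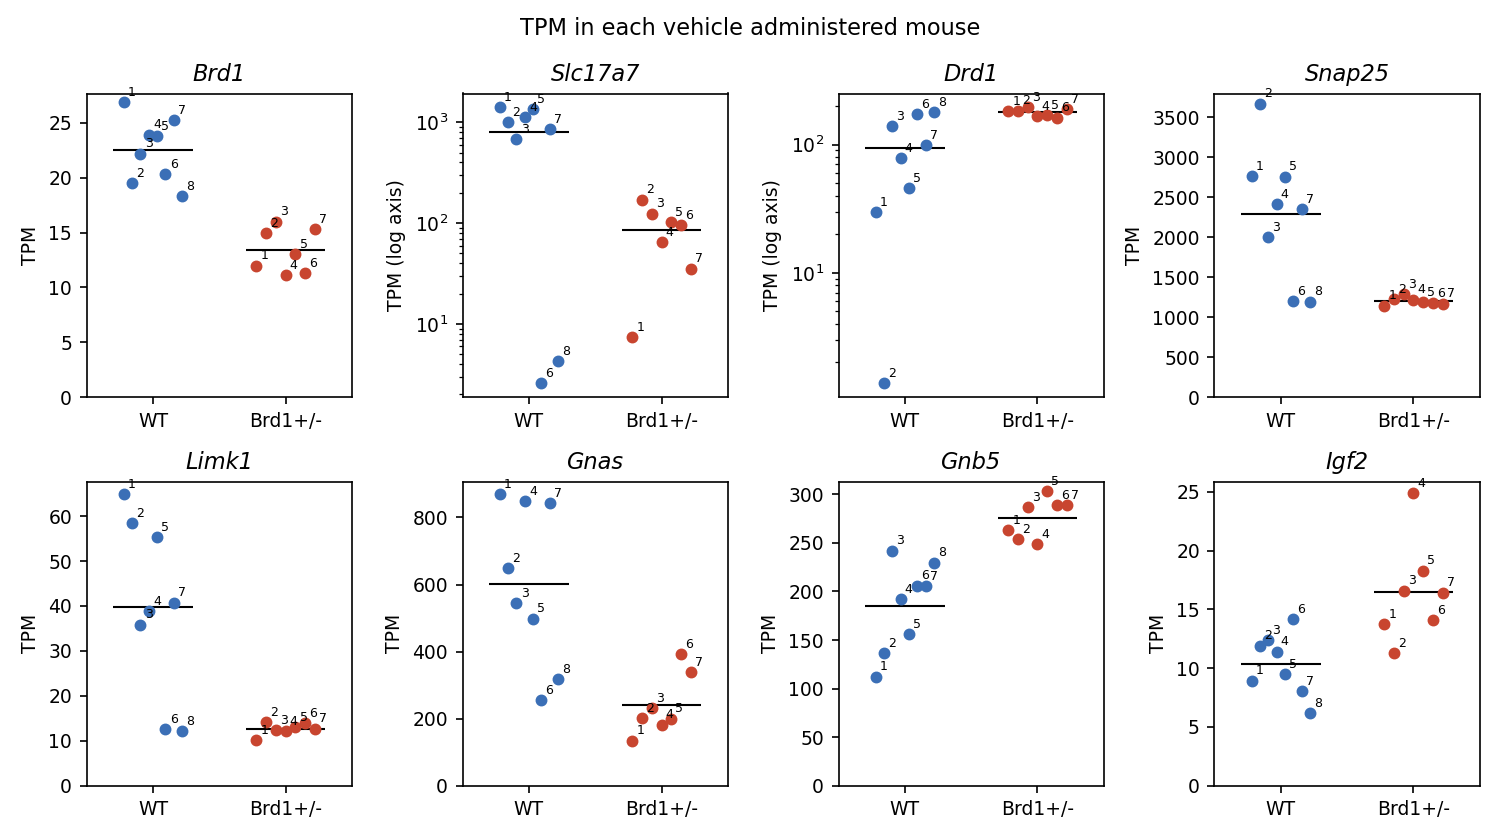
TPM (y axis, log axis where marked) of 8 genes in each vehicle administered WT and *Brd1*+/- mouse, with the mouse number beside each point and the group mean as a line. *Brd1* and *Gnb5* separate the groups, whereas *Slc17a7*, *Snap25* and *Limk1* in WT mice 6 and 8 lie at or below the level of the *Brd1*+/- mice.

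Genes of synaptic release and excitability were lower more often than higher, as were all called genes, of which 89.2% were lower. Of 25 synaptic vesicle genes, 11 (44%) were called lower and 2 (8%) higher, beside 12.1% and 1.47% of all genes. Their median log2 fold change was −0.55, where that of all genes was −0.13. After scaling it was −0.35, where 9 (36%) were lower and 2 (8%) higher, beside 5.2% and 4.01% of all genes. *Snap25*, encoding a SNARE of vesicle fusion, was at 1196, 2384 and 3674 TPM in WT mice and 1147, 1190 and 1286 in *Brd1*+/- mice. The 2 lowest WT values, 1202 and 1196 TPM, were those of mice 6 and 8 and fell inside the *Brd1*+/- range. Its log2 fold change was −0.84 ± 0.21, and 0.00 against those 2 mice. *Syt1*, the calcium sensor of release, and *Syn1*, which tethers vesicles, both differed by −0.82 (SE 0.21 and 0.23). Their differences from WT mice 6 and 8 were 0.10 and 0.15. *Sv2b*, a vesicle glycoprotein gene of the cortical list, was at 45.8, 148 and 198 TPM in WT mice and 45.6, 54.8 and 75.5 in *Brd1*+/- mice, and differed by 0.20 from WT mice 6 and 8. For the list as a whole, 4 genes were lower and 1 higher with the cortical score as a covariate. The median was 0.10 against WT mice 6 and 8, with 0 genes lower and 1 higher.

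Potassium channel genes, which set resting and firing properties, had 24 of 77 called lower (31.2%, beside 12.1% of all genes) and 5 higher (6.49%, beside 1.47%), and 16 and 9 after scaling. In the fit with the cortical score as a covariate, 6 of the 77 were lower and 0 higher, where 2.03% and 0.134% of all genes were. Against WT mice 6 and 8 it was 0 and 2, where 0.232% and 0.659% of all genes were. *Kcnj9*, a G protein gated channel subunit, was at 16.2, 65.2 and 118 TPM in WT mice and 14.7, 19.7 and 21.01 in *Brd1*+/- mice, and it differed by 0.13 from WT mice 6 and 8. *Kcnmb4*, an accessory subunit of BK channels, fell by 1.15 ± 0.29 on the log2 scale, and differed by 0.09 from WT mice 6 and 8. Of 13 GABA-A receptor subunits, 3 (23.1%, beside 12.1% of all genes) were called lower and 0 higher. After scaling 3 (23.1%) were lower and 2 (15.4%) higher, beside 5.2% and 4.01% of all genes. It was 1 lower with the cortical score as a covariate and 0 against WT mice 6 and 8. *Gabra3* was at 10.5, 61.5 and 74.1 TPM in WT mice and 9.78, 15.1 and 20.2 in *Brd1*+/- mice, and its difference from WT mice 6 and 8 was 0.42. *Gabra4*, a subunit of medium spiny neurons, differed by 0.57 ± 0.20 and was called after scaling (0.76) but not before. Of 11 AMPA and NMDA receptor subunits, 2 (18.2%, beside 12.1% of all genes) were called lower, among them *Grin2a* (−0.41 ± 0.14, and 0.07 against WT mice 6 and 8). After scaling 1 was lower, with the cortical score as a covariate 0 were, and against WT mice 6 and 8 0 were lower and 1 higher. Of 10 interneuron genes, 5 (50%) were called lower in TPM as deposited and 2 (20%) after scaling, beside 12.1% and 5.2% of all genes. It was 0 with the cortical score as a covariate, beside 2.03% of all genes, and 0 against WT mice 6 and 8, where the median was 0.09. *Npy* was at 221, 298 and 411 TPM in WT mice and at 169, 202 and 257 in *Brd1*+/- mice, with 227 and 221 TPM in WT mice 6 and 8. *Sst* differed by −0.44 ± 0.13, *Pvalb* by −1.44 ± 0.49, and *Htr3a*, an ionotropic serotonin receptor gene, by −0.88 ± 0.21. For *Pvalb*, WT mouse 2 stood at 284 TPM, far above the other 7, and the difference from WT mice 6 and 8 was 0.12. *Sst* and *Pvalb* were not called after scaling, and *Pvalb* lost its call without any 1 of 11 of the mice.

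G protein signaling genes moved in both directions. Of 32 genes for Gi alpha subunits and the receptors that couple to them, 12 (37.5%, beside 12.1% of all genes) were called lower and 2 (6.25%, beside 1.47%) higher, and 11 and 5 after scaling. The fit with the cortical score as a covariate called 5 of the 32 lower and 0 higher, where 2.03% and 0.134% of all genes were. Against WT mice 6 and 8 it was 0 and 3, where 0.232% and 0.659% of all genes were. *Htr1a*, the serotonin 1A receptor gene, was at 0.292, 4.46 and 6.29 TPM in WT mice and 0.475, 0.7096 and 0.887 in *Brd1*+/- mice. WT mouse 8 held the lowest value and mouse 6 had 0.555 TPM, and the other 6 WT mice lay above every *Brd1*+/- mouse. Its log2 fold change was −1.32 ± 0.35 in all mice, −0.50 with the cortical score as a covariate, where it was still called, and 0.24 against WT mice 6 and 8. *Htr1d*, another serotonin autoreceptor gene, went the other way, at 0.164, 1.56 and 4.36 TPM in WT mice and 1.88, 8.22 and 12.1 in *Brd1*+/- mice. Its difference of 1.46 ± 0.38 was 1.34 against WT mice 6 and 8, with 2.12 and 1.76 TPM. *Gnai1* and *Gnaz*, both inhibitory alpha subunits, fell by 0.89 ± 0.25 and 0.55 ± 0.13, and differed by 0.13 and −0.02 from WT mice 6 and 8. *Npy1r*, a neuropeptide Y receptor gene, fell by 0.86 ± 0.23, and *Chrm4*, the muscarinic receptor of D1 neurons, rose by 0.78 ± 0.25. Both turned in sign against WT mice 6 and 8, at 0.04 and −0.05.

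Among 21 genes for Gs alpha subunits, their receptors and adenylyl cyclases, 5 (23.8%, beside 12.1% of all genes) were called lower and 0 higher, and 4 and 2 after scaling. Given the cortical score as a covariate, 2 were lower, and against WT mice 6 and 8 0 were called. *Gnas*, the widely expressed stimulatory alpha subunit, was at 254, 597 and 869 TPM in WT mice and 134, 202 and 392 in *Brd1*+/- mice. WT mice 6 and 8 had the 2 lowest WT values, 254 and 319 TPM. The log2 fold change was −1.29 ± 0.29, −0.76 with the cortical score as a covariate and −0.33 against WT mice 6 and 8. *Gnal*, the stimulatory subunit of medium spiny neurons, differed by 1.06 ± 0.38 and was called only after scaling (1.25). *Adcy1* and *Adcy2*, adenylyl cyclases with high expression in cortex, fell by 1.11 ± 0.33 and 1.09 ± 0.32. Their differences from WT mice 6 and 8 were 0.33 and 0.29, and neither was called. Of 32 Gq genes, 5 (15.6%) were lower, near the 12.1% of all genes, and 3 (9.38%) higher, beside 1.47% of all genes. With the cortical score as a covariate 0 Gq genes were called, and against WT mice 6 and 8 it was 0 lower and 1 higher. Among those lower in all mice was *Adra1d*, an adrenergic receptor gene, at −2.07 ± 0.57 (0.22 against WT mice 6 and 8). Of 15 beta and gamma subunits, 4 (26.7%) were lower and 1, *Gnb5*, higher, 2 and 1 with the cortical score as a covariate, and 0 and 1 against WT mice 6 and 8. *Gng13* fell by 0.87 ± 0.18 and *Gng3* by 0.94 ± 0.24, and against WT mice 6 and 8 they differed by −0.30 and 0.01. Of 16 RGS genes, which end G protein signals, 3 (18.8%, beside 12.1% of all genes) were lower and 1, *Rgs2* (0.79 ± 0.27, and −0.01 against WT mice 6 and 8), higher, and against WT mice 6 and 8 it was 0 and 1. *Rgs19* was among the lower genes, at −0.65 ± 0.15, and was the 1 RGS gene called with the cortical score as a covariate.

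Downstream of cyclic AMP, 3 of 17 genes for protein kinase A, CREB and their partners were called lower (17.6%, beside 12.1% of all genes) and 1 higher, 1 and 0 with the cortical score as a covariate, and 0 and 0 against WT mice 6 and 8. *Prkar1b*, a neuronal regulatory subunit, fell by 1.19 ± 0.30, with 180 and 153 TPM in WT mice 6 and 8 against 156 to 204 TPM in *Brd1*+/- mice. *Prkaca*, a catalytic subunit, fell by 0.38 ± 0.10 and was not called after scaling (−0.19). *Akap5*, the anchoring protein of the postsynaptic density, rose by 0.86 ± 0.25, and was at 41.0 and 32.4 TPM in WT mice 6 and 8 and at 33.5, 76.8 and 93.6 TPM in *Brd1*+/- mice. Of 18 phosphodiesterases, 4 (22.2%) were lower and 0 higher. After scaling it was 2 and 4, or 11.1% and 22.2%, beside 5.2% and 4.01% of all genes. In the fit with the cortical score as a covariate 0 were called, nor any of the 16 testable against WT mice 6 and 8. *Pde4a* fell by 0.80 ± 0.23 and *Pde1a* by 1.93 ± 0.65 in all mice, and against WT mice 6 and 8 the differences were 0.08 and 1.00. *Pde1b*, an enzyme of medium spiny neurons, had a difference of 1.40 ± 0.50 that was called only after scaling (1.59).

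Of 23 activity-regulated genes, which are induced within minutes to hours of neuronal firing, 5 (21.7%, beside 12.1% of all genes) were called lower and 0 higher, and 1 was lower with the cortical score as a covariate. Their median log2 fold change was −0.29, −0.10 after scaling and 0.12 against WT mice 6 and 8, where 0 were called. *Bdnf*, the neurotrophin gene, was at 0.0625, 6.90 and 14.5 TPM in WT mice and 0.140, 0.514 and 1.20 in *Brd1*+/- mice. The other 6 WT mice all lay above every *Brd1*+/- mouse, and WT mice 6 and 8 lay below them all, at 0.0625 and 0.102 TPM. *Ier5* was at 22.6, 47.8 and 68.2 TPM in WT mice and at 19.9, 25.1 and 30.2 in *Brd1*+/- mice, and its difference of −0.83 ± 0.20 was still called with the cortical score as a covariate (−0.42). *Ier2* fell by 1.04 ± 0.30 and *Nptx2*, which clusters AMPA receptors, by 0.65 ± 0.18, and neither was called with the cortical score as a covariate. *Nptx2* differed by 0.02 from WT mice 6 and 8. *Fos* was at 5.88, 21.9 and 63.7 TPM in WT mice and 4.82, 8.45 and 16.9 in *Brd1*+/- mice, and was not called (−1.16 ± 0.42). Of 15 neurotrophin and GDNF genes, 2 (13.3%, beside 12.1% of all genes) were lower, *Bdnf* and the coreceptor *Gfra2* (−2.14 ± 0.69), and 1 higher, *Gdnf* (0.87 ± 0.29). With the cortical score as a covariate 0 of them were called, and against WT mice 6 and 8 it was 0 lower and 1 higher. *Gfra2* and *Gdnf* turned in sign against WT mice 6 and 8, at 1.02 and −0.13. *Gfra2* was at 1.36 and 0.961 TPM in WT mice 6 and 8 and 1.40 to 5.36 in *Brd1*+/- mice.

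Sequence upstream of the RefSeq start site is shown for *Bdnf* and *Ier5*, 2 of the 5 called members of this group, because neuronal activity acts on such genes in part through CREB, and for *Brd1* as the targeted gene. Each run is 250 bases read in the direction of transcription, from RefSeq on GRCm38.p6, and capitals mark the half-site TGACG of the cyclic AMP response element on either strand (CGTCA on the strand shown). *Bdnf* has 7 listed start sites, of which 1 had the half-site and is shown (chr2:109692186-109692435, plus strand). *Ier5* lies at chr1:155099637-155099886 and *Brd1* at chr15:88734220-88734469, both on the minus strand. The RefSeq start of *Brd1* lies just inside the annotated gene given above, so the run shown overlaps that gene's first bases.
Bdnf: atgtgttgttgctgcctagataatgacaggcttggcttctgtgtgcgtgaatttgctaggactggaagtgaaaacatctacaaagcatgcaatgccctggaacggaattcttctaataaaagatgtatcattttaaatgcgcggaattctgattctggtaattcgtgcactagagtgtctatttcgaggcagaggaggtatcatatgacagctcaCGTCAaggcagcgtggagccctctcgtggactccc
Ier5: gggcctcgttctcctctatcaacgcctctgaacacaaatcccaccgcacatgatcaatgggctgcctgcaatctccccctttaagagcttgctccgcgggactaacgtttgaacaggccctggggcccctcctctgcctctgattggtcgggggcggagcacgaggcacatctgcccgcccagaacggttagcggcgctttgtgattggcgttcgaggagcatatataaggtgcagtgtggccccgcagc
Brd1: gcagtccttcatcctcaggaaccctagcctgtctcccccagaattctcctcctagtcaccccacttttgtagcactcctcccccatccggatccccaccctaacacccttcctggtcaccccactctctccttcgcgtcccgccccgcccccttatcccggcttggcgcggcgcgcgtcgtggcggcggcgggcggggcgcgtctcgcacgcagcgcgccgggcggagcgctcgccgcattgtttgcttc
Of the 23 activity-regulated genes, 18 had a promoter in the table and 13 of these held the half-site in at least 1, against 17.8% of all 32851 promoters. This describes letters in a window and not a bound site, and genes with several start sites had more chances.

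Housekeeping programs had medians below 0 in TPM as deposited and close to level after scaling, as had all genes (−0.13 and 0.00). The median of all genes was −0.06 with the cortical score as a covariate and 0.01 against WT mice 6 and 8. Among proteasome subunits, 19 of 38 (50%) were called lower and 0 higher before scaling, beside 12.1% and 1.47% of all genes. After scaling it was 1 (2.63%) lower and 0 higher, beside 5.2% and 4.01% of all genes. Their median log2 fold change was −0.22 before and −0.04 after scaling. It was −0.15 with the cortical score as a covariate, where 1 was called, and −0.08 against WT mice 6 and 8, where 0 were. *Psmc6*, an ATPase of the regulatory particle, was at 53.2, 64.3 and 74.3 TPM in WT mice and 41.6, 50.6 and 53.6 in *Brd1*+/- mice, and fell by 0.36 ± 0.09. *Psmb10*, an immunoproteasome subunit, was the 1 member also called after scaling, at −1.20 ± 0.34 and −1.02, and its difference from WT mice 6 and 8 was 0.14. Of 82 nuclear genes of oxidative phosphorylation, 12 (14.6%, beside 12.1% of all genes) were called lower before and 1, *Ndufb6*, after scaling. Their median was −0.16 with the cortical score as a covariate and −0.12 against WT mice 6 and 8, where 68 of 80 were lower in sign (46.9% of all genes were) and 1 was called. *Ndufb6* was at 74.7, 85.1 and 117 TPM in WT mice and 55.7, 64.5 and 65.5 in *Brd1*+/- mice, with no overlap. Of 81 cytosolic ribosomal protein genes, 5 (6.17%) were lower before, a smaller share than the 12.1% of all genes, and 1, *Rps15a* (−0.71 ± 0.14), after scaling. Their median was −0.20 as deposited, −0.01 after scaling, −0.15 with the cortical score as a covariate and −0.15 against WT mice 6 and 8, where 75 of 80 were lower in sign and 2 were called. Chaperone genes had 17 of 66 (25.8%, beside 12.1% of all genes) lower before scaling. After scaling 5 (7.58%) were lower and 1 (1.52%) higher, beside 5.2% and 4.01% of all genes. With the cortical score as a covariate 1 was lower, beside 2.03% of all genes. Of the 64 testable against WT mice 6 and 8, 0 were called. Of 15 genes of the unfolded protein response, 6 (40%, beside 12.1% of all genes) were lower before, such as *Atf4* (−0.61 ± 0.18) and *Pdia6* (−0.37 ± 0.09). In this list 0 were called after scaling, beside 5.2% of all genes lower, with the cortical score as a covariate or against WT mice 6 and 8.

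In TPM as deposited, the 13 protein genes of the mitochondrial genome had a median above 0 and the nuclear subunits of the same complexes a median below 0 (−0.24, and −0.04 after scaling). All 13 had a positive difference, 3 were called higher (23.1%, beside 1.47% of all genes), and the median was 0.31, or 0.50 after scaling. *mt-Nd4l*, a complex I subunit gene, was at 4980, 8368 and 10688 TPM in WT mice and 9620, 11538 and 13723 in *Brd1*+/- mice (log2 fold change 0.57 ± 0.16). *mt-Co1*, the most abundant of those described, differed by 0.14 ± 0.14 and was not called. The median of the 13 was 0.14 with the cortical score as a covariate and 0.02 against WT mice 6 and 8, with 0 called in both fits.

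Cholesterol synthesis, in which neurons and glia make sterol from acetyl-CoA, was lower in sign in all 22 genes, as were 16897 of all 23200 genes tested, and 9 were called (40.9%, beside 12.1% of all genes). The median log2 fold change was −0.50, and −0.31 after scaling with 3 called. It was −0.15 with the cortical score as a covariate, where 1 was called. *Pmvk*, mevalonate pathway kinase, was at 18.3, 33.5 and 40.4 TPM in WT mice and 13.9, 19.5 and 21.8 in *Brd1*+/- mice. *Fdps*, a synthase of the same pathway, differed by −0.66 ± 0.19, as *Pmvk* did (−0.66 ± 0.17). WT mice 6 and 8 had 18.3 and 19.1 TPM of *Pmvk*, and the median of the list against them was 0.14 with 0 called.

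Actin regulators had 8 of 24 called lower (33.3%, beside 12.1% of all genes) and 0 higher, and 5 and 0 after scaling. *Limk1*, the kinase that inactivates cofilin, was at 12.1, 39.8 and 64.9 TPM in WT mice and 10.2, 12.7 and 14.2 in *Brd1*+/- mice. The difference of −1.38 ± 0.32 was called with the cortical score as a covariate (−0.63). WT mice 6 and 8 had 12.6 and 12.1 TPM, and the difference from them was 0.03. *Dstn*, an actin severing protein gene, fell by 0.49 ± 0.12. With the cortical score as a covariate 6 of the 24 were called lower, beside 2.16% of all genes called in that fit. In the comparison with WT mice 6 and 8, 0 were called. Of 92 Klhl and Fbx adaptors of ubiquitin ligases, 19 (20.7%, beside 12.1% of all genes) were lower, *Klhl21* among them (−0.54 ± 0.11). After scaling 6 (6.52%) were lower and 4 (4.35%) higher, near the 5.2% and 4.01% of all genes. With the cortical score as a covariate 3 were lower, beside 2.03% of all genes. In the comparison with WT mice 6 and 8, 0 of the 86 testable were called. Of 363 Zfp zinc finger genes, 30 (8.26%) were lower and 5 (1.38%) higher, both below the 12.1% and 1.47% of all genes, and 14 and 13 were after scaling. Allowing for the cortical score, 3 were lower, and against WT mice 6 and 8 0 were called. *Zfp57*, which maintains imprints, was at 2.28, 5.14 and 10.8 TPM in WT mice and 1.08, 1.41 and 3.17 in *Brd1*+/- mice. Of 14 glucocorticoid-responsive genes, 1 (7.14%), *Zbtb16*, was lower (−1.34 ± 0.40), and of 11 chemokine genes 2 (18.2%) were lower, beside 12.1% of all genes. In both lists 0 were called with the cortical score as a covariate or against WT mice 6 and 8.

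**Figure D4:**
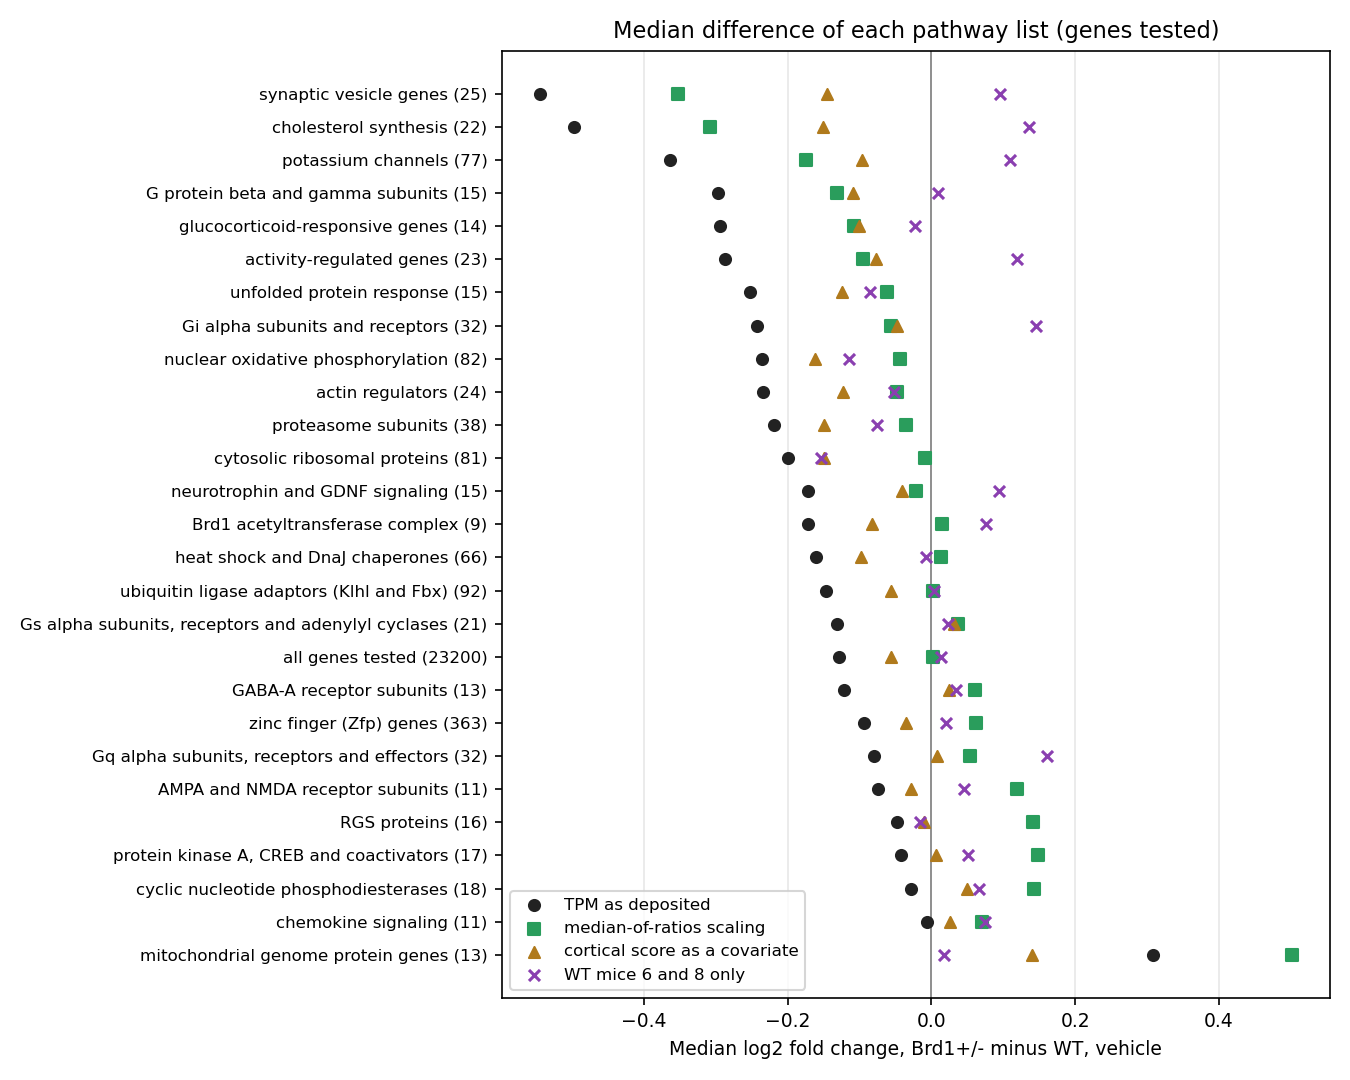
Median log2 fold change (x axis, *Brd1*+/- minus WT under vehicle) of each pathway list, with the number of genes tested in parentheses (y axis), in TPM as deposited, after median-of-ratios scaling, with the cortical score as a covariate and against WT mice 6 and 8 only. Synaptic vesicle genes lie at −0.55 as deposited and 0.10 against WT mice 6 and 8, and mitochondrial genome genes lie at 0.31 and 0.02.

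Microglial and vascular genes were called higher more often after scaling than before. In TPM as deposited, all 12 microglia genes had a positive difference, as had 6303 of all 23200 genes, but 1 was called, *Trem2*, a lipid-sensing receptor gene. *Trem2* was at 2.99, 6.07 and 11.5 TPM in WT mice and 8.03, 11.5 and 14.7 in *Brd1*+/- mice (0.76 ± 0.22). After scaling, 6 of the 12 were called higher, where 4.01% of all genes were, with *Csf1r* at 0.41 and *P2ry12* at 0.44. With the cortical score as a covariate 0 were called, nor were any against WT mice 6 and 8. The median log2 fold change was 0.17 as deposited, 0.14 with that covariate and 0.18 against those WT mice. In both of these fits 11 of 12 were higher in sign, beside 35% and 53.1% of all genes. Of 10 endothelial genes 1 was higher before and 3 after scaling, of 8 mural cell genes 0 and 2, and of 8 meningeal fibroblast genes 1 and 3, where 1.47% of all genes were higher before and 4.01% after. In the fit with the cortical score as a covariate it was 0, 0 and 1, and against WT mice 6 and 8 it was 0 in all 3 lists. Medians as deposited, with that covariate and against those mice were 0.09, 0.11 and 0.18 for endothelium. They were 0.17, 0.16 and 0.17 for mural cells and 0.30, 0.29 and 0.36 for meningeal fibroblasts. *Igf2*, a growth factor gene of meninges and choroid plexus, was at 6.15, 10.4 and 14.1 TPM in WT mice and 11.3, 16.4 and 24.9 in *Brd1*+/- mice. It differed by 0.63 ± 0.17, by 0.65 with the cortical score as a covariate, where it was called, and by 0.71 against WT mice 6 and 8.

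To see which calls withstood each allowance at once, genes were counted that were called in all 5 of the following fits: as deposited, scaled, with each score as a covariate, and scaled with the cortical score. There were 114, of which 98 were lower and 16 higher. *Brd1*, *Tbcb*, *Map2k3*, *Ncapd2*, *Glmn*, *Dnaja1*, *Hmgb1*, *Vill*, *Gng13*, *Gnas*, *Rps15a*, *Zfp57* and *Klhl21* were among the lower genes, and *Jag1*, *Gnb5*, *Gpr12* and *Igf2* among the higher. Against WT mice 6 and 8, 107 of the 114 could be tested and 12 were called in the same direction, where 0.892% of all genes were called. That fit uses the same 7 *Brd1*+/- mice and 2 of the same WT mice that chose the 114. In the separate mice administered IMN, 1 of the 114, *Brd1*, was called in the same direction, where 0.703% of all genes were called. The 5 fits share mice, so the count is not a replication.

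The mice administered IMN gave the genotype contrast in other animals. There, 164 of 23339 genes were called (0.703%), and *Brd1* alone passed an FDR of 5% (log2 fold change −0.60 ± 0.08, adjusted p = 0.0396). Cortical scores in these mice ran from 1.26 to 5.26 in WT and 1.26 to 4.10 in *Brd1*+/- mice. WT mice 5 and 8 stood at 5.26 and 4.86, and the other WT mice at 3.32 or below. Under vehicle, 6 WT mice had scores of 5.11 to 6.27. Of the 2811 genes lower under vehicle, 2770 were tested under IMN and 11 (0.397%) were called, all of them lower, a share no larger than the 0.514% of all genes called lower there. Their median log2 fold change was −0.08, where that of all genes was −0.03, and 82.6% were lower in sign, against 63.3% of all genes. Of the 342 higher genes, 2 were called higher (0.585%, beside 0.189% of all genes), and 60.5% were higher in sign, against 36.7% of all genes. Next to *Brd1*, the lower genes called in both were *Ero1lb*, *Stau2*, *Tnnc1*, *Psmb10*, *Ltbp3*, *Gm42829*, *Matk*, *Sh3rf1*, *Fmnl1* and *Phf23*, named for being called in both. *Stau2*, which carries dendritic RNA, was at 78.3, 96.6 and 104 TPM in WT mice and 60.9, 72.4 and 86.4 in *Brd1*+/- mice under vehicle, and its log2 fold change was −0.33 ± 0.09 under vehicle and −0.27 ± 0.08 under IMN. *Phf23*, a PHD finger gene, differed by −0.53 ± 0.17 and −0.57 ± 0.16, and *Matk*, a kinase gene, by −0.38 ± 0.11 and −0.30 ± 0.08. After scaling, *Stau2*, *Matk* and *Phf23* were not called under vehicle.

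Whether the genotype difference itself differed between vehicle and IMN was tested as an interaction over all 31 mice. It was called for 951 of 25394 genes (3.74%), and for 0 at an FDR of 5%, with 4119 at an unadjusted p under 0.05. *Gnb5* differed by 0.61 under vehicle and −0.01 under IMN, *Glmn* by −0.56 and 0.05 and *Limk1* by −1.38 and −0.02, each with an adjusted p of 0.261 for the interaction in limma. For *Brd1* that adjusted p was 0.681. Leaving out WT vehicle mouse 6 or 8 gave 2349 and 2571 calls, and leaving out WT vehicle mouse 1 gave 546.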

How the data were processed

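RNA from 1 tissue punch of each of 31 mice was sequenced on BGISEQ-500 as single-end reads. Per the study's methods, the authors aligned reads to GRCm38 with HISAT2 2.1.0 and quantified genes with StringTie 1.3.4. The deposited TPM values, made by the authors, were used as they stand. They are not counts, so the read depth of each mouse is unknown here beyond the minimum that the study states, and count models could not be used.

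Of 52636 gene IDs, 52403 were named from GENCODE, and 0 sample columns were left unused. A gene was tested when 7 or more of the fitted mice exceeded 0.1 TPM, with limma 3.58.1 in R 4.3.3, two-sided, on log2(TPM + 1) with a prior variance trend and Benjamini-Hochberg adjustment over all genes tested. Fold changes are on that scale, which understates the change of low genes. The study itself fitted read counts, and its thresholds (nominal p under 0.01, FDR 5%) were kept. Fits were tried on simulated data drawn around the mean and SD of the 7 *Brd1*+/- vehicle mice. Those data lack the split of the WT punches and so do not bear on it. Gene lists were described by counts and medians, without a test.

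Named genes were *Brd1*, the 10 lower and 10 higher protein-coding genes with the smallest p and a mean of at least 1 TPM, and in each list the first 3 members and up to 4 with the smallest p. Some genes that this rule names are not reported here. Genes called under both treatments were chosen after their values were seen. The comparison and the lists were chosen with earlier results of these data known. Alternatives were other scalings, pseudocounts, filters, weights, score covariates, a replicate block and leaving out mice. Leaving out 6 WT mice, or WT mice 2 and 7, was chosen after seeing the data. Same-numbered mice of the 2 genotypes did not deviate together, so the numbers were not used as pairs.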

Additional observations from a re-analysis of the deposited data

Results flagged for a closer look

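Dixon's test of the most extreme mouse in each group, at its 95% critical value, was made 222 times and singled out 17 values, where chance alone gives about 1 in 20. Of the cell type scores (mean log2(TPM + 1)), the interneuron score of 3.62 in *Brd1*+/- mouse 1 was far below its group, and the oligodendrocyte precursor score of 4.72 in WT mouse 1 far above. *Brd1*+/- mouse 6 stood above its group in the microglia score (5.02) and the choroid plexus and ependyma score (1.35). The same mouse was high for *Sbsn* at 30.4 TPM and low for *Gnal* at 361 TPM and *Akap5* at 33.5 TPM. WT mouse 2, whose striatal markers were the lowest, stood above the other WT mice for *Pvalb* (284 TPM), *Adra1d* (38 TPM) and *Atf4* (159 TPM). The other single genes were *Dnaja1* at 65.5 TPM in *Brd1*+/- mouse 4, *Cacna1c* at 34.1 TPM in *Brd1*+/- mouse 3 and *Pdia6* at 54.6 TPM in WT mouse 8. *Zfp57* was high in WT mouse 5 (10.8 TPM) and in *Brd1*+/- mouse 7 (3.17 TPM). Summed Y-linked TPM was 26.8 in WT mouse 7 and 0.171 in *Brd1*+/- mouse 1.

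The genotype difference differed between vehicle and IMN at p under 0.01 by the interaction test in 951 genes, and in 0 genes at an FDR of 5%.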

How the results depend on the processing

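The count of 3153 genes called under vehicle was 6137 with sample quality weights and 5005 with all 4 groups in 1 fit. It was 501 with the cortical score, 266 with the medium spiny neuron score, 420 with scaling and the cortical score, 188 without the 6 WT mice of high cortical score, 213 without them after scaling, and 1317 without WT mice 2 and 7. Leaving out 1 mouse in turn gave 2036 to 5154 under vehicle, 127 to 252 under IMN and 546 to 2571 for the interaction. Under IMN the count was 252 without WT mouse 2 and 251 without *Brd1*+/- mouse 3. For the interaction it was 605 without WT vehicle mouse 2, 590 without mouse 5, 633 without *Brd1*+/- vehicle mouse 1 and 1674 without WT IMN mouse 5. A mean of at least 1 TPM left 97 calls under IMN. With the replicate block the vehicle count was 4110, the IMN count 157, the interaction count 1086 and *Brd1* −0.75, and 3583 vehicle genes then passed an FDR of 5% (6854 with weights, 4963 with all 4 groups), although the numbers did not pair the mice (correlations of −0.144 to 0.068 over 7 pairs). *Brd1* lay between −0.75 and −0.67 when 1 mouse was left out and was lower and called in every alternative. Of 77 named genes called, 66 were still called after scaling, 38 with the cortical score and 3 of 76 without the 6 WT mice, where 29 changed sign. Causes of these shifts were not tested.

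Without the 6 WT mice, log2 fold changes that changed sign were *Slc17a7* 3.88, *Neurod6* 2.30, *Fezf2* 0.44, *Sv2b* 0.20, *Drd2* −0.059, *Adora2a* −0.10, *Penk* −0.10, *Ppp1r1b* −0.23, *Chat* −0.24, *Pvalb* 0.12, *Gnal* −0.00037, *Adcy1* 0.33, *Adcy2* 0.29, *Gnai1* 0.13, *Htr1a* 0.24, *Npy1r* 0.039, *Chrm4* −0.048, *Adra1d* 0.22, *Gng3* 0.013, *Rgs2* −0.0096, *Prkar1b* 0.11, *Pde1a* 1.00, *Pde4a* 0.0799, *Pde1b* −0.073, *Bdnf* 0.52, *Gfra2* 1.02, *Gdnf* −0.13, *Fos* 0.26, *Nptx2* 0.022, *Grin2a* 0.075, *Gabra3* 0.42, *Gabra4* −0.063, *Kcnj9* 0.13, *Kcnmb4* 0.087, *Snap25* 0.0031, *Syt1* 0.10, *Syn1* 0.15, *Limk1* 0.027, *Psmb10* 0.14 and *Fam131a* 1.42. *Fam131a*, named after its values were seen, passed an FDR of 5% there. *Slc17a7*, *Neurod6*, *Fezf2* and *Sv2b* are in the cortical excitatory neuron list whose score chose the mice left out. WT mice 6 and 8 scored below every *Brd1*+/- mouse, so the change of sign of that list was fixed by the choice. Of 43 list medians, 28 changed sign without the 6 WT mice, 14 after scaling and 8 with the cortical score. Those that did so by more than 1 SD of the list's level between mice were, without the 6 WT mice, D1 projection neurons −0.048, D2 projection neurons −0.10, medium spiny neurons −0.16, cortical excitatory neurons 2.13, cortical layer genes 0.28, GABAergic interneurons 0.0905, cholinergic interneurons −0.36, astrocytes 0.17, Brd1 acetyltransferase complex 0.075, Gi alpha subunits and receptors 0.15, Gq alpha subunits / receptors and effectors 0.16, G protein beta and gamma subunits 0.0084, neurotrophin and GDNF signaling 0.094, potassium channels 0.11, synaptic vesicle genes 0.10, cholesterol synthesis 0.14, zinc finger (Zfp) genes 0.021 and ubiquitin ligase adaptors (Klhl and Fbx) 0.0037. With the cortical score, genes that changed sign were *Slc17a7* 1.25, *Neurod6* 0.21 and *Fam131a* 0.56. *Slc17a7* and *Neurod6* are members of that score, so a change of sign among its members is built into the fit. After scaling, the list medians past 1 SD were Brd1 acetyltransferase complex 0.014, RGS proteins 0.14, protein kinase A / CREB and coactivators 0.15, AMPA and NMDA receptor subunits 0.12, heat shock and DnaJ chaperones 0.013, zinc finger (Zfp) genes 0.062 and ubiquitin ligase adaptors (Klhl and Fbx) 0.0021. The read depth of each mouse is unknown beyond the minimum that the study states, so no counting limit can be given for low genes.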
